A study of Mus musculus with 12 samples.

Results

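The TNF superfamily and the proteins that carry its signals were followed in RNA from mouse neutrophils. The members were the genes whose symbol began with Tnfrsf or Tnfsf or was Traf plus a digit, together with Tnf, Ltb, Cd40, Fas, Cd27, Tradd, Fadd, Ripk1, Ripk3, Mlkl, Cflar, Casp8, Birc2, Birc3, Xiap, Tank and Map3k14. They numbered 47 of the 13935 rows of the table, and all 47 passed the filter on low values. Lta and Fasl, also named by the rule, are not analysed here. By role the 47 comprised 8 ligands, 1 read-through locus, 4 receptors with a death domain, 12 receptors that bind TRAF proteins, 3 decoy or related receptors, 8 genes for TRAF proteins or TANK, 3 genes for death domain adaptors or RIPK1, 4 for inhibitors of apoptosis or the kinase NIK, 2 for caspase 8 and its regulator, and 2 for necroptosis.

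The series concerns neutrophil activation where Socs3 is missing from myeloid cells. Femoral marrow neutrophils sorted by CD11b and Ly6G were cultured for 8 h in medium with serum. The 4 groups of 3 libraries were LysMcre Socs3fl/fl cells with G-CSF at 10 ng/ml, Socs3fl/fl cells with the same dose, LysMcre Socs3fl/fl cells without addition, and Socs3fl/fl cells without addition; the last 3 are called here floxed with G-CSF, LysMcre-labelled untreated and floxed untreated. All 4 groups carry Socs3 alleles with loxP sites, so no group has the unmodified gene. Cre is driven by the lysozyme 2 locus (LysM, Lyz2), which is active in neutrophils, monocytes and macrophages. Socs3 encodes an inhibitor of the STAT3 signal that G-CSF, a growth factor of the neutrophil lineage, starts in these cells. No label ties a library to a mouse, so the p-values below measure the spread between libraries, which may be technical.

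TNF superfamily ligands are mostly membrane proteins that act as trimers and can be shed. Their receptors fall into those with an intracellular death domain, which recruit TRADD, FADD and RIPK1, those that bind TRAF adaptors directly, and decoys that bind ligand and pass on no death signal. At the TNF receptor, TRAF2 with the cIAP ubiquitin ligases (Birc2, Birc3) directs the signal to NF-kappaB, while FADD, caspase 8 and its regulator cFLIP (Cflar) control apoptosis. Where caspase 8 is blocked, RIPK3 and MLKL carry out necroptosis. In neutrophils these pathways are known for priming by TNF and for setting the length of the cell's short life.

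The label checks split. Socs3, the targeted gene, was not lower in the LysMcre-labelled libraries. It had 35984, 37668 and 38354 normalized counts in LysMcre-labelled libraries with G-CSF, against 21391, 18533 and 18588 in floxed libraries with G-CSF, a log2 difference of 0.94 (limma adjusted p = 1.06e-06). Untreated libraries had 313, 311 and 253 normalized counts (LysMcre-labelled) and 225, 201 and 248 (floxed), which did not pass (adjusted p = 0.329). Whether these reads cover the part between the loxP sites cannot be read from a table of whole genes. Lyz2, the locus that carries Cre, was lower in LysMcre-labelled libraries in both conditions, with log2 differences of -6.35 with G-CSF and -5.20 without. For 3 libraries the title names both G-CSF and no treatment; their descriptions name a Socs3 knockout and G-CSF and decided the group. For both reasons these groups are called "LysMcre-labelled" throughout. Depth was 19495754 to 26472118 reads a library. All 13 neutrophil markers were in the table, with sums between 1842616 and 2189596 normalized counts. Of these 13, 2 were called higher and 7 lower in LysMcre-labelled than in floxed libraries with G-CSF. Of all tested genes, 36% were called in that comparison (17.1% higher, 18.9% lower). B cell markers were also present in every library: the sum of all 8 was 10571 to 17324 in LysMcre-labelled and 7176 to 10935 in floxed libraries with G-CSF, and 12309 to 18136 in LysMcre-labelled and 8992 to 12995 in floxed untreated libraries. None of the 61 markers of other cell types and neutrophils in the table was at 0 in any library. In such bulk samples, fewer cells of a type and less RNA per cell cannot be told apart.

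Tnfrsf1a, Tnfrsf1b and Tnfsf14 gave the most normalized counts per kb of exon with G-CSF. In LysMcre-labelled libraries with G-CSF these mean levels were 8002 normalized counts per kb for Tnfsf14, 5765 for Tnfrsf1a and 4972 for Tnfrsf1b, against 4041, 3920.2 and 2756 per kb in floxed libraries with G-CSF. The order of these 3 was the same in both. Untreated libraries had another order: Tnfrsf1a led with 3177 per kb in LysMcre-labelled and 3235 in floxed libraries, and Ltb came next with 2261 and 2291. Tnfrsf10b was at the bottom of the 47 in the untreated groups, with 2.48 and 1.41 per kb. Of the 47 members, 5 stayed below a mean of 50 normalized counts in every group: Tnfsf10, Tnfrsf19, Tnfsfm13, Tnfsf13 and Tnfsf12. Neighbouring ranks were not tested against each other.

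Genotype labels made no called difference without G-CSF and a broad one with it. Of the 47 members, 0 passed limma's adjusted p of 0.05 between LysMcre-labelled and floxed untreated libraries, where 0.115% of all 13915 tested genes did (0.0647% higher, 0.0503% lower). At an unadjusted p of 0.05, 1 member (Birc3, log2 difference -0.13) was under the threshold, and edgeR and DESeq2 on recovered reads called 0. With G-CSF, 16 members were higher and 3 lower in LysMcre-labelled libraries. These 19 make 40.4% of the members, against 36% of all tested genes, so the share called is close to the background. Of all tested genes, 17.1% were called higher and 18.9% lower. The median log2 difference was 0.12 over the members and -0.01 over all tested genes. When each library was scaled to an equal total instead, the counts became 16 higher and 11 lower, all tested genes then had a median of -0.13, and 28.2% in place of 47.5% of all calls were higher. The plot of the genotype difference by role shows where the 19 lie.

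**Figure D1:**
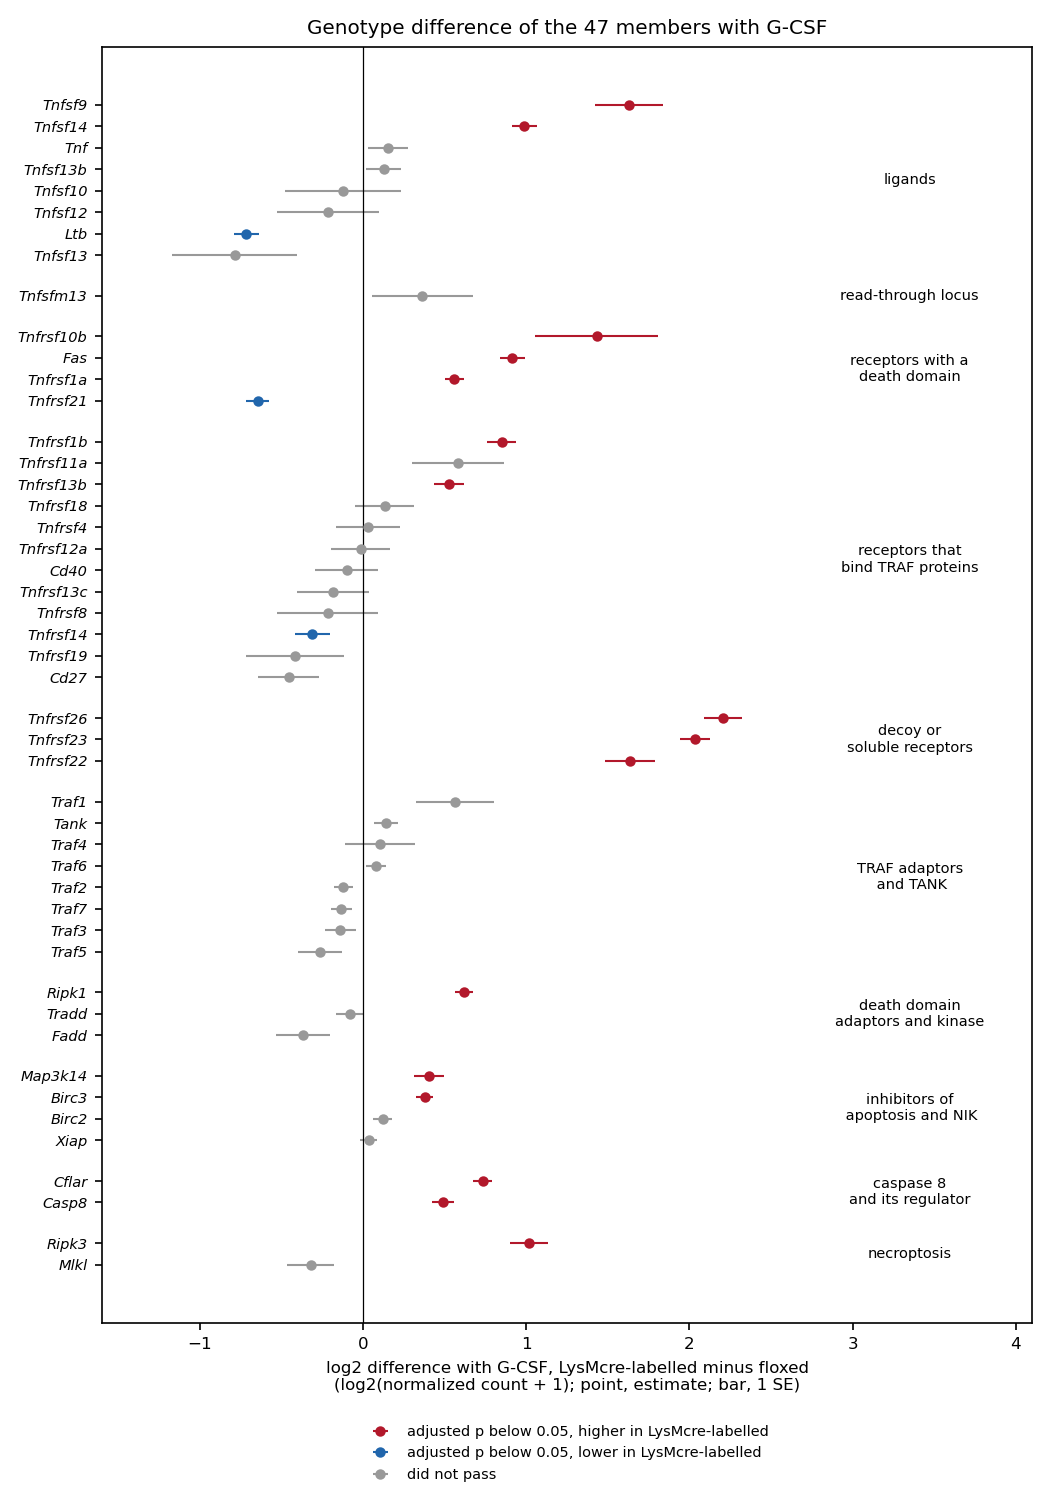
Log2 difference (x axis, log2 of normalized count + 1) between LysMcre-labelled and floxed libraries with G-CSF for the 47 members, grouped by role; points are estimates, bars 1 SE (n = 3 libraries a group). Red points (16) passed limma's adjusted p of 0.05 as higher and blue points (3) as lower; Tnfrsf26, Tnfrsf23 and Tnfrsf22 lie farthest right at 2.21, 2.03 and 1.63, and no TRAF gene is coloured. Under other settings Traf2, Traf3, Traf5 and Traf7 passed as lower with equal totals, Traf7 also under quantile normalization and without floxed replicate 3 with G-CSF, and Traf1 as higher without that library.

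G-CSF changed most members in both genotypes. In LysMcre-labelled libraries 22 members were higher and 12 lower than untreated, 72.3% of the members against 62.6% of all tested genes (31.1% higher, 31.6% lower). In floxed libraries 20 were higher and 8 lower, 59.6% against 48.8% of all tested genes (24.1% higher, 24.6% lower). Both comparisons have their own untreated libraries. Of the members, 26 were called in the same direction in both genotypes (19 higher, 7 lower), 0 in opposite directions, 8 in LysMcre-labelled libraries alone, 2 in floxed libraries alone and 11 in neither. A call in a single genotype is no sign of a difference, which the interaction term tested: the G-CSF response differed for 17 members, 15 with a higher value in LysMcre-labelled libraries and 2 with a lower one. This is 36.2% of the members, against 22.4% of all tested genes (10.9% higher, 11.5% lower). All 17 were also among the 19 called between genotypes with G-CSF, which shares those libraries with the interaction; the other two were Tnfrsf10b and Tnfrsf14. The plot of the responses sets both genotypes side by side.

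**Figure D2:**
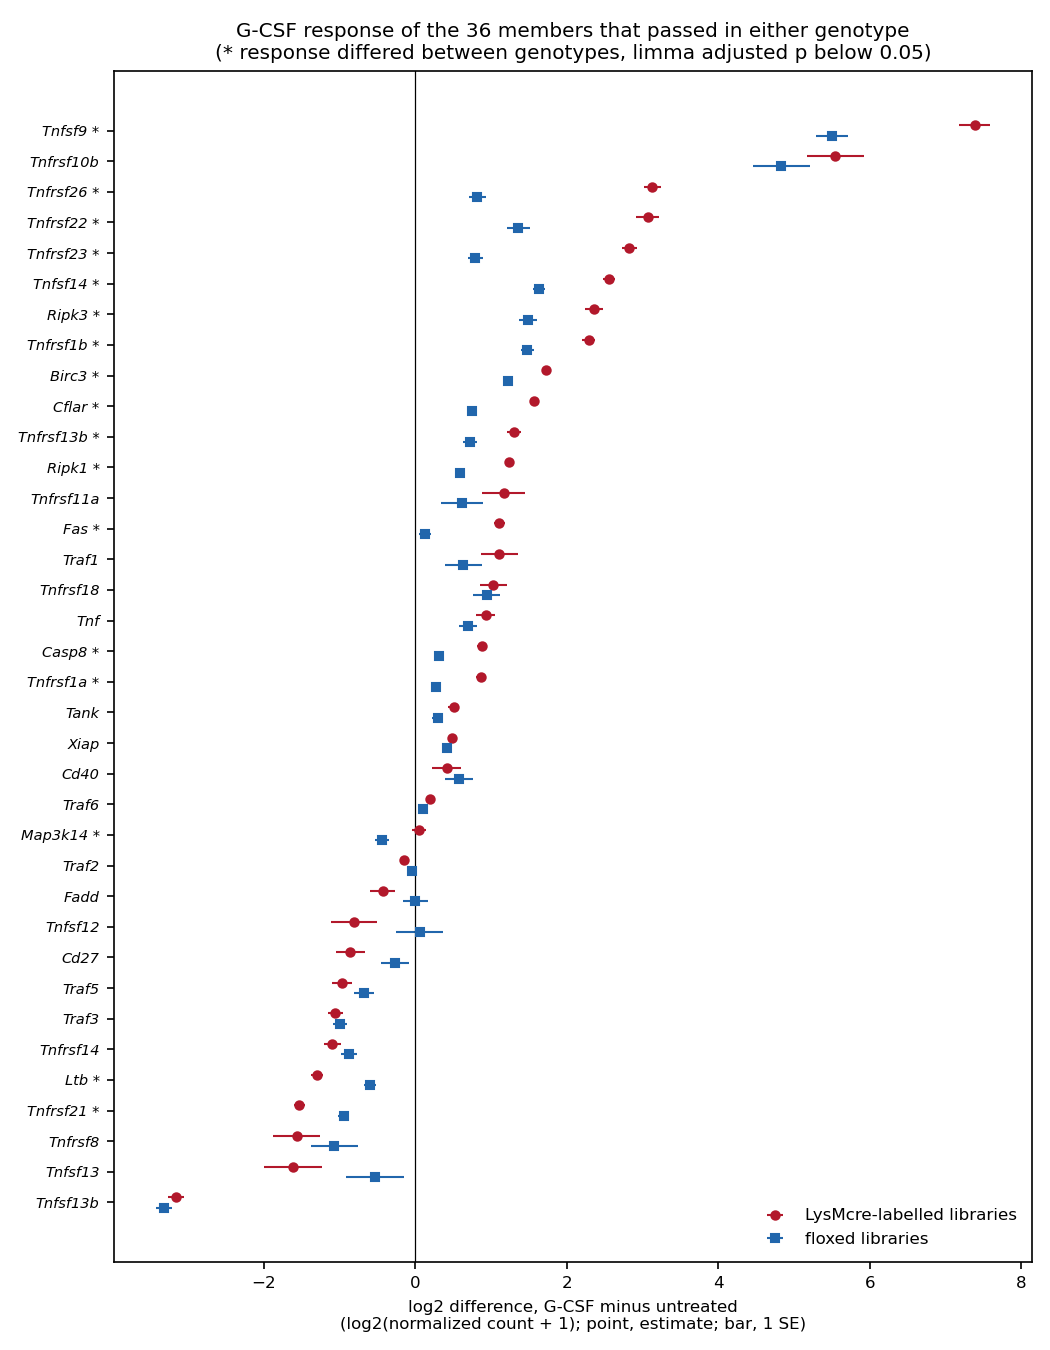
Log2 difference between G-CSF and untreated libraries (x axis, log2 of normalized count + 1) for the 36 members called in either genotype; red circles are LysMcre-labelled and blue squares floxed libraries, with bars of 1 SE, and an asterisk marks the 17 members whose response differed by the interaction term. Tnfsf9 lies farthest right with 7.38 in LysMcre-labelled and 5.50 in floxed libraries, and Tnfsf13b farthest left with -3.16 and -3.32.

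**Figure D3:**
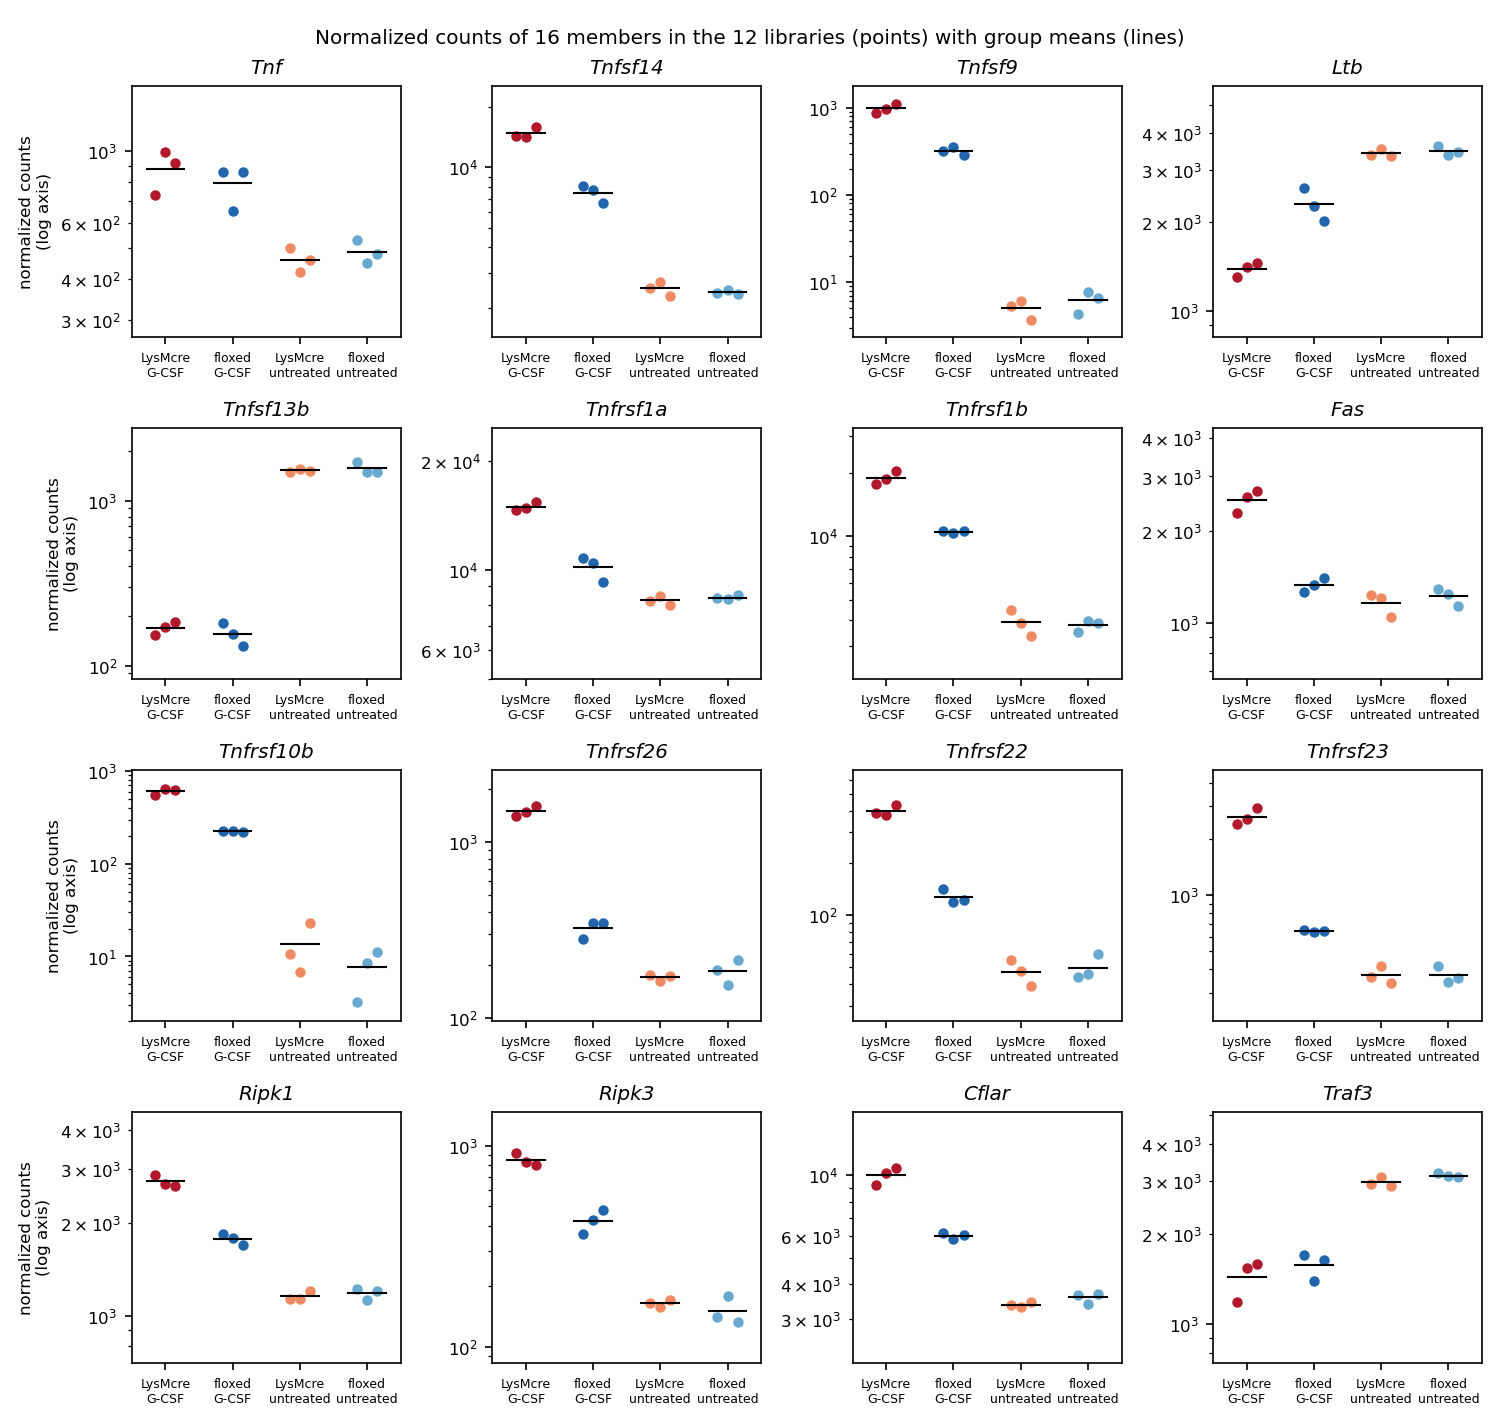
Normalized counts (y axis, logarithmic) of 16 members in each library, with points for libraries and lines for group means (3 libraries a group). In the panels of Tnfrsf26, Tnfrsf22, Tnfrsf23, Ripk3 and Tnfsf14 the 3 LysMcre-labelled libraries with G-CSF lie above all other libraries. The same holds for Tnfsf9, Tnfrsf1a, Tnfrsf1b, Fas, Tnfrsf10b, Ripk1 and Cflar. In the panel of Ltb these 3 libraries lie below all others.

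Among the 8 ligands, Tnfsf9 and Tnfsf14 were higher and Ltb lower in LysMcre-labelled than in floxed libraries with G-CSF, and 5 did not pass. Tnfsf9 encodes the ligand of CD137, a costimulatory receptor of lymphocytes. It had 883, 969 and 1119 normalized counts in LysMcre-labelled libraries with G-CSF and 317, 353 and 286 in floxed ones. Untreated libraries had 5.26, 6.02 and 3.71 (LysMcre-labelled) and 4.26, 7.71 and 6.59 (floxed), from 4 to 9 reads each. Groups with G-CSF overlapped neither each other nor the untreated groups. The log2 difference between genotypes with G-CSF was 1.63 ± 0.21 (SE, limma adjusted p = 1.77e-05), and the responses of 7.38 in LysMcre-labelled and 5.50 in floxed libraries differed by 1.88 (adjusted p = 0.000271). With so few untreated reads the size depends on the pseudocount: with 5 in place of 1 the responses were 6.64 and 4.86. Of the 50-base windows of its transcripts, 11.5% also occur in those of the predicted gene Gm11110, so part of its reads may be shared.

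Tnfsf14 encodes LIGHT, a ligand of HVEM (Tnfrsf14) and of the lymphotoxin beta receptor. Its normalized counts were 14386, 14118 and 15834 in LysMcre-labelled libraries with G-CSF, against 8058, 7706 and 6629 in floxed libraries with G-CSF. Without G-CSF they were 2531, 2707 and 2292 (LysMcre-labelled) and 2383, 2462 and 2350.0 (floxed). Every library with G-CSF was above every untreated one, and every LysMcre-labelled library with G-CSF above the floxed ones. The genotype difference with G-CSF was 0.99 ± 0.08 on the log2 scale (SE, limma adjusted p = 1.15e-07), and the responses were 2.56 in LysMcre-labelled and 1.63 in floxed libraries. The gene for its receptor moved the other way with G-CSF, as given below for Tnfrsf14.

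Tnf itself rose with G-CSF in both genotypes and gave no called difference between them. It had 729, 994 and 921 normalized counts in LysMcre-labelled libraries with G-CSF and 863, 653 and 863 in floxed ones, against 499.5, 423 and 458 in LysMcre-labelled and 531, 451 and 481 in floxed untreated libraries. The groups with G-CSF overlap each other and lie above the untreated ones. Its responses were 0.93 ± 0.12 in LysMcre-labelled libraries (SE, limma adjusted p = 8.69e-06) and 0.69 ± 0.12 in floxed libraries (adjusted p = 0.000247). Between genotypes with G-CSF the log2 difference was 0.15 ± 0.12 (adjusted p = 0.378), and leaving out single libraries gave 0.02 to 0.28, none of them past the threshold.

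Ltb encodes lymphotoxin beta, the membrane anchor of the lymphotoxin trimer, and lies next to Tnf on chromosome 17. It fell with G-CSF and was lower in LysMcre-labelled libraries. Its values were 1304, 1414 and 1454 normalized counts in LysMcre-labelled libraries with G-CSF, 2605, 2272 and 2014 in floxed libraries with G-CSF, 3375, 3549 and 3358 in LysMcre-labelled untreated and 3613, 3363 and 3445 in floxed untreated libraries. Neither group with G-CSF overlapped any other group. LysMcre-labelled minus floxed libraries with G-CSF gave -0.72 ± 0.08 (SE, limma adjusted p = 3.31e-06), with responses of -1.30 in LysMcre-labelled and -0.60 in floxed libraries that differed by -0.70 (adjusted p = 0.000273). Lymphocytes also express Ltb. The summed T and NK cell markers (9 of 10 in the table) were lower with G-CSF as well: 275 to 337 and 294 to 341 normalized counts in LysMcre-labelled and floxed libraries with G-CSF, against 558 to 594 in LysMcre-labelled and 470.3 to 522 in floxed untreated libraries. Cd3d carried this fall, with means of 36.7 in LysMcre-labelled and 51.4 in floxed libraries with G-CSF, against 296 in LysMcre-labelled and 243 in floxed untreated libraries. In each G-CSF response 0 of the 9 markers were called higher and 1 lower, and between genotypes with G-CSF 0 were higher and 2 lower. Of the 8 B cell markers, 1 was called higher and 0 lower between genotypes with G-CSF. Their part in the Ltb result was not tested. The promoter of Ltb is shown because it alone among the members holds both motifs searched, a STAT motif (TTCNNNGAA) and an NF-kappaB motif (GGG and TTCC with any 3 bases between), each read on both strands from 250 bases before to 50 after the start. The sequence, from RefSeq on GRCm38.p6, runs 5′ to 3′ and stops where GENCODE's first exon of Ltb begins, with the STAT motif and then the NF-kappaB motif in capitals.
Ltb (chr17:35194257-35194438, plus strand, 182 bases): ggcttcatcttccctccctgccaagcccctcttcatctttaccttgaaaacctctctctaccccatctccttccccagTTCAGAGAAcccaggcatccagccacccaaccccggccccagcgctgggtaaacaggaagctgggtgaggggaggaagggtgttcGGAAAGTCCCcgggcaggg

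Tnfsf13b encodes BAFF, a survival factor of B cells that neutrophils are known to release. It had the steepest fall of the members. Libraries with G-CSF had 155, 171 and 185 normalized counts (LysMcre-labelled) and 183, 155 and 133 (floxed), against 1493, 1558 and 1519.9 in LysMcre-labelled and 1721, 1485 and 1500.1 in floxed untreated libraries. The genotypes overlapped under either condition, and the treated and untreated libraries were far apart. The response was -3.16 ± 0.10 in LysMcre-labelled (SE, limma adjusted p = 7.75e-13) and -3.32 ± 0.10 in floxed libraries (adjusted p = 1.28e-12), and the genotype difference with G-CSF was 0.12 (adjusted p = 0.392). Monocyte markers, 7 of 7 in the table, had lower sums with G-CSF too, 12544 to 15482 in LysMcre-labelled and 15534 to 19248 in floxed libraries, against 19721 to 21789 in LysMcre-labelled and 20374 to 21395 in floxed untreated libraries. Ly6c2 made most of this, with means of 2254 in LysMcre-labelled and 4871 in floxed libraries with G-CSF, against 10061 in LysMcre-labelled and 11062 in floxed untreated libraries. Of the 7 markers, 3 were called higher and 3 lower with G-CSF in LysMcre-labelled libraries and 4 higher and 2 lower in floxed ones, and their part was not tested.

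The other ligand genes were near the bottom of the table. Tnfsf10 (TRAIL) averaged 22.8 normalized counts in LysMcre-labelled and 24.9 in floxed libraries with G-CSF and 19.2 in LysMcre-labelled and 18.9 in floxed untreated libraries, and passed no test. Tnfsf12 (TWEAK) and Tnfsf13 (APRIL, a B cell factor related to BAFF) overlap the read-through locus Tnfsfm13, and 46.8%, 57.3% and 71% of the 50-base windows of Tnfsf12, Tnfsf13 and Tnfsfm13 are shared, so their values are uncertain. Tnfsf13 averaged 7.66 ± 5.70 and 22.2 ± 1.68 normalized counts (SD, n = 3) in LysMcre-labelled libraries with and without G-CSF, a response of -1.62 (limma adjusted p = 0.00177). Between genotypes with G-CSF it passed without LysMcre-labelled replicate 2 with G-CSF (-1.29, adjusted p = 0.00714) and not with it (-0.79). The LysMcre-labelled response of Tnfsf12 passed as well (-0.81, adjusted p = 0.0329), and lost the call when LysMcre-labelled replicate 1 or 2 with G-CSF or untreated replicate 1 was left out. Tnfsfm13 had means of 12.9 to 20.8 over the groups and passed no test.

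Of the 4 receptors with a death domain, Tnfrsf1a, Fas and Tnfrsf10b were higher and Tnfrsf21 lower in LysMcre-labelled than in floxed libraries with G-CSF. Tnfrsf1a encodes the main signalling receptor for TNF. It had 14612, 14830.2 and 15369.8 normalized counts in LysMcre-labelled libraries with G-CSF and 10776, 10429 and 9267 in floxed ones, against 8225, 8484 and 7983 in LysMcre-labelled and 8341, 8291 and 8511 in floxed untreated libraries. The LysMcre-labelled libraries with G-CSF stood apart, and the floxed ones lay between these and the untreated groups. With G-CSF the genotypes differed by 0.56 ± 0.06 (SE, limma adjusted p = 2.17e-06). Responses were 0.86 in LysMcre-labelled and 0.27 in floxed libraries, and they differed by 0.59 (adjusted p = 1.00e-04). Under quantile normalization these responses were 0.41 and 0.04, and the floxed one did not pass (adjusted p = 0.412).

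Fas, the receptor of Fas ligand, responded in LysMcre-labelled libraries. It had 2283, 2574 and 2696 normalized counts in LysMcre-labelled libraries with G-CSF and 1267, 1329.9 and 1400.1 in floxed libraries with G-CSF. In untreated libraries it had 1237, 1211 and 1051 (LysMcre-labelled) and 1294, 1241 and 1136 (floxed), so the floxed libraries overlapped with and without G-CSF. The LysMcre-labelled response was 1.11 ± 0.08 (SE, limma adjusted p = 6.15e-09), the floxed one 0.12 ± 0.08 (adjusted p = 0.217), and the difference between them 0.99 (adjusted p = 1.40e-05). Its promoter is shown as that of the death receptor with the largest called interaction; it holds a STAT motif, in capitals, that begins 93 bases before the start (RefSeq, GRCm38.p6).
Fas (chr19:34290409-34290658, plus strand, 250 bases): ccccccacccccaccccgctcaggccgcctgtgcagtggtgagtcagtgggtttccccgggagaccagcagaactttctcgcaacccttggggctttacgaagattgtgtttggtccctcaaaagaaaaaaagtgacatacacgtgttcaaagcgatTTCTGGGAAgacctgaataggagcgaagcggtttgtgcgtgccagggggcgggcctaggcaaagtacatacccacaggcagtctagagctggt

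Tnfrsf10b encodes the mouse TRAIL receptor with a death domain. It had few reads in untreated cells and rose with G-CSF in both genotypes. Libraries with G-CSF had 547, 642 and 632 normalized counts in LysMcre-labelled and 227, 226 and 217 in floxed cells. Untreated libraries had 10.5, 6.88 and 23.2 (LysMcre-labelled) and 3.20, 8.57 and 11.3 (floxed), which is 3 to 25 reads a library. No treated library overlapped an untreated one. Responses were 5.54 ± 0.38 and 4.83 ± 0.38 (LysMcre-labelled, floxed; SE; limma adjusted p = 3.77e-09 and 3.81e-08). The genotype difference with G-CSF was 1.43 ± 0.38 (adjusted p = 0.00749). The responses were not shown to differ (interaction 0.71 ± 0.53, adjusted p = 0.404), and with a pseudocount of 5 the floxed response was 4.23.

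Tnfrsf21, a death domain receptor known from neurons and lymphocytes, fell with G-CSF. It had 1508, 1475 and 1648 normalized counts in LysMcre-labelled and 2619, 2304 and 2335 in floxed libraries with G-CSF, against 4201, 4476 and 4743 in LysMcre-labelled and 4621, 4344 and 5012 in floxed untreated libraries. The LysMcre-labelled libraries with G-CSF were lowest, with no overlap with the floxed ones. Between genotypes with G-CSF the log2 difference was -0.65 ± 0.07 (SE, limma adjusted p = 3.88e-06), and the responses of -1.53 in LysMcre-labelled and -0.95 in floxed libraries differed by -0.59 (adjusted p = 0.000523).

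Of the 12 receptors that bind TRAF proteins, Tnfrsf1b and Tnfrsf13b were higher and Tnfrsf14 lower in LysMcre-labelled libraries with G-CSF, and 9 did not pass. Tnfrsf1b, the other TNF receptor, which lacks a death domain, had 17712, 18803 and 20432 normalized counts in LysMcre-labelled and 10542, 10395 and 10636 in floxed libraries with G-CSF. Untreated libraries had 4474, 3878 and 3348 (LysMcre-labelled) and 3529.9, 3964 and 3883 (floxed). The 4 groups were apart except the untreated pair. LysMcre-labelled minus floxed libraries with G-CSF gave 0.85 ± 0.09 (SE, limma adjusted p = 1.89e-06), and the responses of 2.29 in LysMcre-labelled and 1.47 in floxed libraries differed by 0.82 (adjusted p = 0.000185). Per kb of exon the level of Tnfrsf1b was 4972 in LysMcre-labelled libraries with G-CSF, where Tnfrsf1a had 5765, and 1021 in untreated ones, where Tnfrsf1a had 3177. The promoter is shown for its STAT motif (capitals), which begins 181 bases before the start (RefSeq, GRCm38.p6).
Tnfrsf1b (chr4:145246871-145247120, minus strand, 250 bases): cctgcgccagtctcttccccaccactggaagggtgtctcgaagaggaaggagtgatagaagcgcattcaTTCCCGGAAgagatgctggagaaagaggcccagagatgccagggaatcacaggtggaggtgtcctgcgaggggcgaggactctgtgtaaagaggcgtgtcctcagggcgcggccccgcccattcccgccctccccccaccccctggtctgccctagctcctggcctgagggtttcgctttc

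Tnfrsf13b (TACI, a receptor for BAFF and APRIL) averaged 804 ± 39.1 normalized counts in LysMcre-labelled and 559.5 ± 53.8 in floxed libraries with G-CSF, and 325 ± 24.3 in LysMcre-labelled and 339.7 ± 33.3 in floxed untreated libraries (SD, n = 3 each). With G-CSF the genotypes differed by 0.53 (limma adjusted p = 0.000339) and the interaction was 0.59 (adjusted p = 0.00391). B cells express Tnfrsf13b too, and the B cell marker sum was 10571 to 17324 in LysMcre-labelled and 7176 to 10935 in floxed libraries with G-CSF. Ighm made most of that difference, with means of 9417 in LysMcre-labelled and 5239 in floxed libraries with G-CSF, while Cd79a had 823 in LysMcre-labelled and 889.7 in floxed ones. The median log2 difference of the 8 markers was -0.07, and their part in the result was not tested. Tnfrsf14 (HVEM) fell with G-CSF. It had 337, 434 and 386 normalized counts in LysMcre-labelled and 513, 443 and 476 in floxed libraries with G-CSF, against 720.4, 823 and 936 in LysMcre-labelled and 874, 804 and 963 in floxed untreated libraries. Its responses were -1.10 in LysMcre-labelled and -0.88 in floxed libraries, both past the threshold. The genotype difference with G-CSF, -0.31 ± 0.11 (SE, limma adjusted p = 0.036), was close to the threshold. It did not pass in edgeR, under quantile normalization, or without replicate 1 or 3 of either group with G-CSF, with an adjusted p between 0.00373 and 0.152 over all alternatives.

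Tnfrsf8 (CD30) fell with G-CSF. Its normalized counts were 19.6, 18.9 and 38.6 in LysMcre-labelled and 19.5, 29.8 and 39.5 in floxed libraries with G-CSF, against 94.7, 82.5 and 52.0 in LysMcre-labelled and 68.2, 57.4 and 57.4 in floxed untreated libraries. The treated and untreated libraries of each genotype did not overlap, although the counts were low. Responses were -1.57 (limma adjusted p = 0.000373) and -1.07 (adjusted p = 0.0093). Tnfrsf18 (GITR, a costimulatory receptor of T cells) rose, with responses of 1.03 in LysMcre-labelled and 0.94 in floxed libraries; 18.7% of its 50-base windows occur in the predicted gene Gm16008, so its reads may be shared. Tnfrsf11a (RANK, the receptor that drives osteoclasts) passed in LysMcre-labelled libraries alone (1.17, adjusted p = 0.00197), where its mean was 90.9 with G-CSF, against 39.6 untreated; edgeR called the floxed response too (0.72, adjusted p = 0.0471). Cd40, a receptor of antigen-presenting cells, passed in floxed libraries alone (0.58, adjusted p = 0.0209) and lost that call with equal totals and without floxed replicate 2 or 3 with G-CSF or untreated replicate 1. Its LysMcre-labelled response was 0.41, and passed without LysMcre-labelled untreated replicate 3 (0.57, adjusted p = 0.0214). With all libraries kept, it passed in limma with a replicate block (0.41, adjusted p = 0.0212) and in edgeR with that block (0.41, adjusted p = 0.0271). Cd27, a lymphocyte receptor, passed in LysMcre-labelled libraries alone (-0.86, adjusted p = 0.000978). For Tnfrsf11a, Cd40 and Cd27 the interaction did not pass, except for Cd27 without floxed replicate 2 with G-CSF (-0.81, adjusted p = 0.0285). Between genotypes with G-CSF, Cd27 (-0.46) passed as lower with equal totals (-0.57, limma adjusted p = 0.0288). It also did so without floxed replicate 2 with G-CSF (-0.67, adjusted p = 0.00994). Tnfrsf11a (0.58) passed there as higher without floxed replicate 3 with G-CSF (0.87, adjusted p = 0.0268). The sums of B cell and of T and NK cell markers are given above, and their part in the Cd27, Cd40 and Tnfrsf18 values was not tested.

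Tnfrsf13c, the BAFF receptor of B cells, Tnfrsf4 (OX40), Tnfrsf12a (the TWEAK receptor) and Tnfrsf19 passed no test. Tnfrsf13c was highest in replicate 3 of both untreated groups, 252 normalized counts in the LysMcre-labelled and 267 in the floxed library, against 159.9 to 172 and 143 to 157 in the other 2 of each. The B cell genes Cd79a and Pax5 were highest in the same libraries (1217 and 1291 normalized counts for Cd79a, 864 and 1014 for Pax5), and their part was not tested. Means over the groups ran between 59.9 and 62.2 for Tnfrsf4, 46.9 and 51.9 for Tnfrsf12a, and 25.4 and 38.8 for Tnfrsf19.

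The 3 decoy and related receptors gave the largest genotype differences of the receptors. Tnfrsf22 and Tnfrsf23 encode mouse TRAIL receptors without a death domain, and Tnfrsf26 is a related gene of the same cluster on chromosome 7. Tnfrsf26 had 1416, 1488 and 1607 normalized counts in LysMcre-labelled libraries with G-CSF, against 282, 348 and 348 in floxed libraries with G-CSF. Untreated libraries had 177, 162 and 175 (LysMcre-labelled) and 188, 153 and 215 (floxed). All 3 LysMcre-labelled libraries with G-CSF were above every other library. Tnfrsf23 had 2424, 2577 and 2944 normalized counts in LysMcre-labelled and 651, 633 and 647 in floxed libraries with G-CSF, and 363, 419 and 337 in LysMcre-labelled and 417, 341 and 359.5 in floxed untreated libraries. Tnfrsf22 had 388, 377 and 429 in LysMcre-labelled and 142, 119 and 122 in floxed libraries with G-CSF, and 54.7, 47.3 and 39.0 in LysMcre-labelled and 43.7, 45.4 and 59.3 in floxed untreated libraries. For each of the 3 the groups with G-CSF overlapped no other group, and the untreated groups overlapped each other.

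The genotype difference with G-CSF was 2.21 ± 0.12 for Tnfrsf26 (SE, limma adjusted p = 2.64e-09), 2.03 ± 0.09 for Tnfrsf23 (adjusted p = 8.57e-10) and 1.63 ± 0.15 for Tnfrsf22 (adjusted p = 8.76e-07). The response of Tnfrsf26 was 3.13 in LysMcre-labelled and 0.82 in floxed libraries, that of Tnfrsf23 2.83 in LysMcre-labelled and 0.79 in floxed libraries, and that of Tnfrsf22 3.07 in LysMcre-labelled and 1.36 in floxed libraries. The interaction was 2.31, 2.03 and 1.71 in that order of genes. Tnfrsf22 and Tnfrsf23 share sequence: 27.4% and 19.3% of their 50-base windows occur in another gene's transcripts, among them each other's, so some reads could be assigned to either. Tnfrsf26 shares 1.89% of its windows.

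The 3 genes lie on the minus strand of chromosome 7 (mm10), Tnfrsf26 at 143607659 to 143628722, Tnfrsf22 at 143634806 to 143649661 and Tnfrsf23 at 143665809 to 143685872. The non-member E230032D23Rik lies across them on the plus strand and was picked after its values were seen. It averaged 188 normalized counts in LysMcre-labelled and 46.3 in floxed libraries with G-CSF, a log2 difference of 2.01 (limma adjusted p = 2.71e-05), and 17.9 and 18.4 untreated. How strand was used in counting is not given, so its reads and those of the receptors cannot be told apart. Of the 7 other rows within 500 kb, Cars (0.39), Nap1l4 (0.24) and Nadsyn1 (-0.47) passed, and Osbpl5, Mrgpre, Dhcr7 and Kcnq1ot1 did not. The promoter of Tnfrsf23 is shown as that of a gene of the cluster; it has no match to either motif, which says only that these letters are not in the window (RefSeq, GRCm38.p6).
Tnfrsf23 (chr7:143685876-143686125, minus strand, 250 bases): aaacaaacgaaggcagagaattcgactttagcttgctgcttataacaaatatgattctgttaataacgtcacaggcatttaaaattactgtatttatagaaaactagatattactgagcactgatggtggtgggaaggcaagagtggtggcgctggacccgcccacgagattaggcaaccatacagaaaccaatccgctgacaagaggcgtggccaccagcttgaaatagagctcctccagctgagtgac

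**Figure D4:**
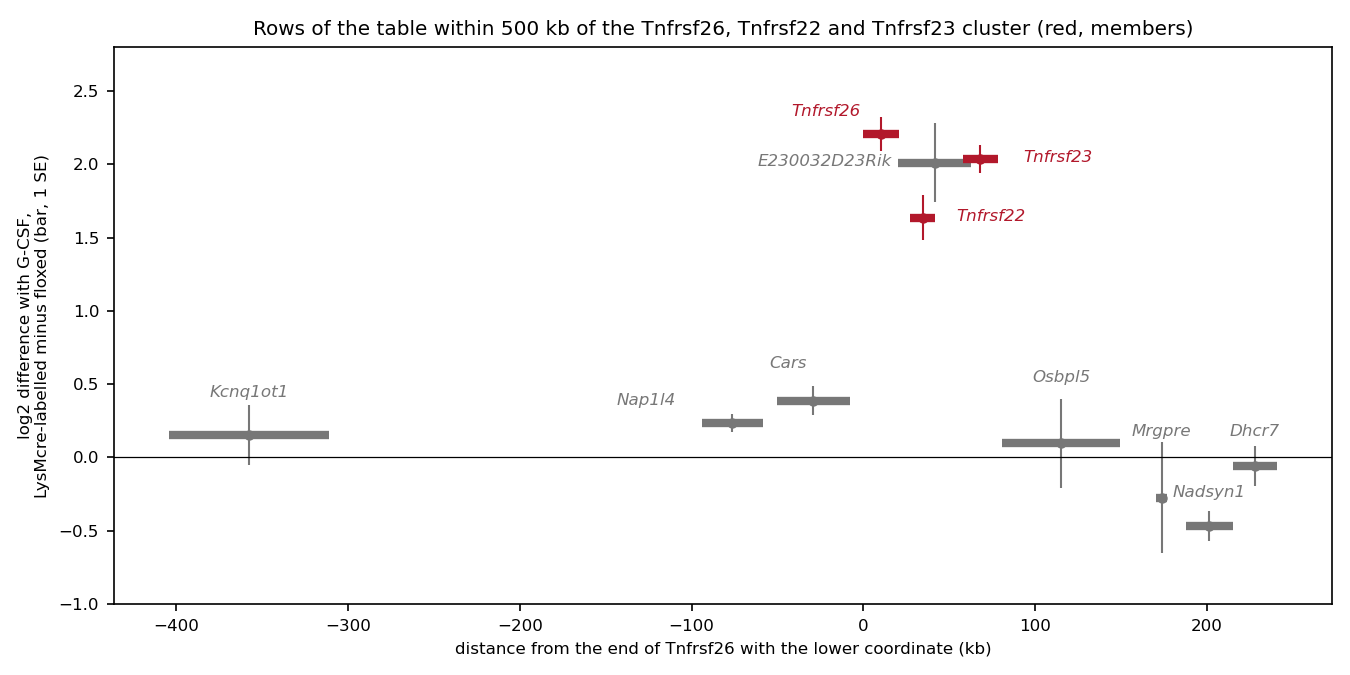
Log2 difference between LysMcre-labelled and floxed libraries with G-CSF (y axis; vertical bars 1 SE, 3 libraries a group) for the rows within 500 kb of the receptor cluster on chromosome 7, drawn over each gene's extent in kb (x axis). The 3 members (red) and the overlapping E230032D23Rik lie between 1.63 and 2.21, and the other rows between -0.47 and 0.39.

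None of the 8 genes for TRAF proteins or TANK passed between genotypes with G-CSF or in the interaction. Of all tested genes, 36% and 22.4% did. In the G-CSF response 6 of the 8 were called in LysMcre-labelled and 4 in floxed libraries. These shares are near the 62.6% and 48.8% of all tested genes. Traf3, an adaptor that restrains NIK and the non-canonical NF-kappaB pathway, fell with G-CSF in both genotypes. It had 1187, 1540.3 and 1588 normalized counts in LysMcre-labelled and 1699.7, 1395 and 1637 in floxed libraries with G-CSF, against 2929, 3092 and 2894 in LysMcre-labelled and 3189.9, 3112 and 3097 in floxed untreated libraries. Both genotypes with G-CSF overlapped and lay below every untreated library. Responses were -1.06 ± 0.10 (SE, limma adjusted p = 1.05e-07) and -0.99 ± 0.10 (adjusted p = 3.94e-07). Traf5, an adaptor of lymphoid receptors, had 109, 147 and 128 normalized counts in LysMcre-labelled and 183, 134 and 146 in floxed libraries with G-CSF, against 239, 253 and 259 in LysMcre-labelled and 229, 233 and 277 in floxed untreated libraries, which did not overlap them. Traf5 had responses of -0.97 in LysMcre-labelled and -0.68 in floxed libraries. With each library scaled to an equal total, 4 of the 8 passed as lower in LysMcre-labelled libraries with G-CSF: Traf5 (-0.38, adjusted p = 0.03), Traf3 (-0.26, adjusted p = 0.0366), Traf7 (-0.25, adjusted p = 0.000474) and Traf2 (-0.24, adjusted p = 0.00465). Without that scaling the values were -0.27, -0.14, -0.13 and -0.12. The promoter of Traf3 is shown for its NF-kappaB motif (capitals), the last 10 bases before the start (RefSeq, GRCm38.p6).
Traf3 (chr12:111166120-111166369, plus strand, 250 bases): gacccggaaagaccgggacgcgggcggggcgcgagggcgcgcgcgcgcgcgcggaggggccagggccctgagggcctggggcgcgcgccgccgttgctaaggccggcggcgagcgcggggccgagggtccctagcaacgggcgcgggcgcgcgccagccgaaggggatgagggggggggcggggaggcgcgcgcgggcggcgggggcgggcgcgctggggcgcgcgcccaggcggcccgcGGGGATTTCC

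Traf1, an NF-kappaB target that pairs with TRAF2, averaged 221 ± 42.8 normalized counts in LysMcre-labelled and 153 ± 50.2 in floxed libraries with G-CSF and 101 ± 16.5 in LysMcre-labelled and 97.5 ± 27.0 in floxed untreated libraries (SD, n = 3 each). Its response of 1.11 passed in LysMcre-labelled libraries (limma adjusted p = 0.000895). In floxed libraries 0.63 passed narrowly (adjusted p = 0.042), its groups overlapped, and 9 of 23 alternatives lost the call; without floxed replicate 3 with G-CSF or floxed untreated replicate 1 the value was 0.40. Tank, a TRAF-binding scaffold, rose in both genotypes (0.50 in LysMcre-labelled and 0.30 in floxed libraries). Traf6, which serves interleukin and Toll-like receptors, passed in LysMcre-labelled libraries at 0.20, but with equal totals its value was -0.065 (adjusted p = 0.405). Traf2 passed there at -0.15 (adjusted p = 0.0414) and lost the call in 11 alternatives; with equal totals it was -0.41 (adjusted p = 2.23e-05). Traf4 and Traf7, which are less tied to TNF receptors, passed no test, with responses from -0.38 to 0.10. Under quantile normalization Traf7 passed between genotypes with G-CSF (-0.20, adjusted p = 0.0055), and without floxed replicate 3 with G-CSF both Traf7 (-0.18, adjusted p = 0.0443) and Traf1 (0.80, adjusted p = 0.0215) did. Traf7 also passed in the interaction with equal totals (-0.29) and quantile normalization (-0.21), and Traf2 with equal totals (-0.27).

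Ripk1, the kinase that joins the death domain adaptors to NF-kappaB and to necroptosis, was higher in LysMcre-labelled libraries with G-CSF. It averaged 2726 ± 118 normalized counts in LysMcre-labelled and 1775 ± 73.6 in floxed libraries with G-CSF, against 1157 ± 40.4 in LysMcre-labelled and 1183 ± 52.9 in floxed untreated libraries (SD, n = 3 each). Between genotypes with G-CSF the log2 difference was 0.62 (limma adjusted p = 6.56e-07), and the responses were 1.24 in LysMcre-labelled and 0.59 in floxed libraries. The adaptor genes did not follow. Tradd averaged 584 to 619.8 over the groups and passed no test, but with equal totals it passed as lower in LysMcre-labelled libraries with G-CSF (-0.20), as did Fadd (-0.48). Fadd averaged 74.0 ± 3.41 in LysMcre-labelled and 95.8 ± 3.34 in floxed libraries with G-CSF and 102 ± 20.3 in LysMcre-labelled and 97.1 ± 17.1 in floxed untreated libraries. Its LysMcre-labelled response of -0.43 (adjusted p = 0.0326) lost the call without replicate 1 or 2 with G-CSF or without untreated replicate 2 or 3 of that genotype.

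Ripk3, the kinase that activates MLKL in necroptosis, had 920.0, 833 and 803 normalized counts in LysMcre-labelled libraries with G-CSF and 363, 426 and 479 in floxed ones. Untreated libraries had 166, 158 and 171 (LysMcre-labelled) and 141, 178 and 133 (floxed). The groups with G-CSF were apart from each other and from the untreated ones. LysMcre-labelled minus floxed libraries with G-CSF gave 1.02 ± 0.12 (SE, limma adjusted p = 7.42e-06), and the responses of 2.36 in LysMcre-labelled and 1.49 in floxed libraries differed by 0.87 (adjusted p = 0.00137). Mlkl, the effector downstream, averaged 111 ± 10.2 in LysMcre-labelled and 141 ± 24.7 in floxed libraries with G-CSF and 135 ± 12.8 in LysMcre-labelled and 153 ± 13.5 in floxed untreated libraries, and passed no test. Its genotype difference with G-CSF was -0.32, and it passed as lower with equal totals (-0.44) and without floxed replicate 1 with G-CSF (-0.47, adjusted p = 0.0144).

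Cflar and Casp8, neighbours on chromosome 1, were both higher in LysMcre-labelled libraries with G-CSF. Cflar (cFLIP, which holds caspase 8 in check) averaged 9996 ± 697 normalized counts in LysMcre-labelled and 6007 ± 153 in floxed libraries with G-CSF, against 3365 ± 67.5 in LysMcre-labelled and 3584 ± 162 in floxed untreated libraries (SD, n = 3 each). Casp8 averaged 1295 ± 34.1 in LysMcre-labelled and 922 ± 19.9 in floxed libraries with G-CSF and 702 ± 47.6 in LysMcre-labelled and 745 ± 49.7 in floxed untreated libraries. Genotype differences with G-CSF were 0.73 for Cflar (limma adjusted p = 1.17e-07) and 0.49 for Casp8 (adjusted p = 2.91e-05). The responses of Cflar were 1.57 in LysMcre-labelled and 0.75 in floxed libraries and those of Casp8 0.88 in LysMcre-labelled and 0.31 in floxed libraries.

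Among the inhibitors of apoptosis, Birc3 was the one called between genotypes with G-CSF. Birc3, a ubiquitin ligase and NF-kappaB target, averaged 7433 ± 339 normalized counts in LysMcre-labelled and 5717 ± 150.4 in floxed libraries with G-CSF and 2253 ± 106 in LysMcre-labelled and 2460.2 ± 30.9 in floxed untreated libraries (SD, n = 3 each). Its difference was 0.38 (limma adjusted p = 3.43e-05), or 0.23 under quantile normalization, and its responses were 1.72 in LysMcre-labelled and 1.22 in floxed libraries. Its paralog Birc2 had group means of 818 to 913 and passed no test. Its floxed response of -0.15 had an adjusted p of 0.0506 and passed in 6 alternatives, among them edgeR (-0.17, adjusted p = 0.0306) and equal totals (-0.24, adjusted p = 0.00418). With equal totals the LysMcre-labelled response of Birc2 passed too (-0.30, adjusted p = 0.000576). Xiap, a direct caspase inhibitor, rose with G-CSF in both genotypes (0.48 in LysMcre-labelled and 0.42 in floxed libraries) and did not differ in a called way between them (0.03). Map3k14, which encodes NIK, fell in floxed libraries (-0.45, adjusted p = 0.000789), and its LysMcre-labelled response was 0.05 (adjusted p = 0.649), or -0.21 with equal totals (adjusted p = 0.0437). It averaged 1143 ± 139 in LysMcre-labelled and 864 ± 102 in floxed libraries with G-CSF, a difference of 0.40 (adjusted p = 0.00265), and 1098 ± 46.6 in LysMcre-labelled and 1171 ± 44.6 in floxed untreated libraries. The interaction of 0.50 (adjusted p = 0.0114) did not pass with equal totals (0.33, adjusted p = 0.0588).

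Promoters of 40 members were matched in RefSeq, 49 windows in all. The STAT motif was in promoters of 7 of these members (Fas, Ltb, Ripk1, Tnfrsf18, Tnfrsf19, Tnfrsf1a and Tnfrsf1b), and 8.30% of all 32851 windows of that length, or 9.55% of 27025 genes, hold it. The NF-kappaB motif was in promoters of 6 (Ltb, Tank, Traf2, Traf3, Traf5 and Traf7), against 5.56% of all windows and 6.31% of genes. No match of one motif overlapped the other. Of the 7 with a STAT motif, Fas, Ripk1, Tnfrsf1a and Tnfrsf1b were higher and Ltb lower in LysMcre-labelled libraries with G-CSF. Of the 6 with an NF-kappaB motif, Ltb alone was called there. Of all 47 members 40.4% were called in that comparison, and of all tested genes 36%. These motif groups are small, and a link between motif and call was not tested. A match is a description of letters and shows no binding.

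A list of 69 other genes of TNF signalling gave the surroundings, all of them in the table. Between genotypes with G-CSF, 20 were higher and 14 lower (49.3%, against 36% of all tested genes), and without G-CSF 0 were called. G-CSF raised 34 and lowered 21 in LysMcre-labelled libraries (79.7%, against 62.6%), and raised 24 and lowered 18 in floxed ones (60.9%, against 48.8%). The response differed for 24, of which 16 were higher and 8 lower in LysMcre-labelled libraries (34.8%, against 22.4% of all tested genes). The linear ubiquitin complex with its deubiquitinases had 5 higher and 1 lower of 12 between genotypes with G-CSF. The TAK1 and IKK complexes had 2 higher and 0 lower of 12, the MAP kinase branch 4 and 4 of 11, the control of Tnf mRNA and shedding 4 and 1 of 9, the caspases and mitochondrial effectors 3 and 3 of 11, and the TNF-induced and TRAF-binding proteins 2 and 5 of 14.

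Casp6, an effector caspase, had the largest genotype difference with G-CSF of the 69. It averaged 2049 ± 85.5 normalized counts in LysMcre-labelled and 631 ± 20.4 in floxed libraries with G-CSF, and 125 ± 8.80 in LysMcre-labelled and 117 ± 16.7 in floxed untreated libraries (SD, n = 3 each), a genotype difference with G-CSF of 1.70 (limma adjusted p = 4.49e-09). Map3k8, the kinase that links TNF receptors to ERK, differed by 1.20 and Tnfaip6, a secreted TNF-induced protein, by 1.06. Tnfaip8 (-0.99), Mapk14 (p38, -0.78) and Traf3ip2 (-0.64) were the largest called falls among genes with a mean of at least 50. Mapk14 averaged 3902 in LysMcre-labelled and 6672 in floxed libraries with G-CSF, against 12679 in LysMcre-labelled and 13119 in floxed untreated libraries. The steepest responses to G-CSF beside Casp6 (4.02 in LysMcre-labelled and 2.43 in floxed libraries) were those of Zfp36l1, which speeds decay of short-lived mRNAs (3.68 in LysMcre-labelled and 3.09 in floxed libraries), and Tnip2, a partner of A20 (3.41 in LysMcre-labelled and 2.71 in floxed libraries). In LysMcre-labelled libraries Tnfaip8 (-1.72) and Mapk14 (-1.71) fell most. In floxed ones Mapk14 (-0.98), Map2k7 (-0.87) and Tbkbp1 (-0.86) did.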

How the data were processed

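RNA-seq of sorted mouse marrow neutrophils gave 12 libraries in 4 groups of 3. The authors deposited 1 table of normalized counts for 13935 genes (a signal of reads divided by a factor per library), with mm10 as the genome build per the submitters' processing notes. Not given in the sources used here are the aligner, the counter, the strand setting and the filter on genes. Every value of the deposited table was a whole number of reads times 1 factor per library (100% within 0.01 of a read), so reads were recovered: 19495754 to 26472118 a library, where 1 read is worth 0.857 to 1.18 normalized counts and a count of 3 reads 2.57 to 3.54. This counting limit does not include the spread between libraries. The lowest gene total was 121 reads over the 12 libraries, so genes with fewer reads than that are absent. Members with few reads remain, such as Tnfsf13 with 187 in all. Its 2 columns that belong to no sample were not used.

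Genotype and treatment came from titles and descriptions. Where title and description differed (3 LysMcre-labelled libraries with G-CSF), the description decided the group. Replicate 2 of the LysMcre-labelled untreated group has a column numbered 3 and was numbered by its title. The main test was limma 3.58.1 (R 4.3.3) with a trend on log2(normalized count + 1), genes with a mean of at least 10 (13915, with 20 left out), all 4 groups in 1 fit with 8 residual degrees of freedom, two-sided, and called at 0.05 after Benjamini-Hochberg adjustment over all 13915. A fold change on this scale understates that of low genes. The differences tested were LysMcre-labelled minus floxed with and without G-CSF, G-CSF minus untreated in each genotype, and the difference between these responses (interaction). Alternatives were pseudocounts of 0.5 and 5, no filter, a mean of at least 50, equal totals, quantile normalization, edgeR 4.0.16 and DESeq2 1.42.0 on recovered reads, the groups of a contrast alone, a replicate block, and each library left out; edgeR with the block was added after seeing the data. The script was tested on simulated data.

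The members, gene lists and tests were chosen with earlier results of these data known. Values in every library are given for Tnf, Tnfrsf1a, Tnfrsf1b and, per comparison, the 6 largest called rises and falls whose higher group averaged 50 or more; partner genes are the 3 largest of each, of which 1 is not reported here. Genes were matched by symbol to GENCODE M21 (47 of 47) and to RefSeq promoters on GRCm38.p6 (40 of 47). Shared sequence is the percent of a gene's 50-base transcript windows found in another gene.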

Additional observations from a re-analysis of the deposited data

Results flagged for a closer look

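For 17 members the response to G-CSF differed between LysMcre-labelled and floxed libraries by the interaction term of the fit (limma adjusted p below 0.05 over 13915 genes, 3 libraries a group). The values are the LysMcre-labelled response minus the floxed one on the log2 scale. The decoy and related receptors had 2.31 (Tnfrsf26), 2.03 (Tnfrsf23) and 1.71 (Tnfrsf22). Among ligands the values were 1.88 for Tnfsf9, 0.93 for Tnfsf14 and -0.70 for Ltb. Receptors with a death domain had 0.99 (Fas), 0.59 (Tnfrsf1a) and -0.59 (Tnfrsf21), and those that bind TRAF proteins 0.82 (Tnfrsf1b) and 0.59 (Tnfrsf13b). The intracellular members had 0.87 (Ripk3), 0.82 (Cflar), 0.65 (Ripk1), 0.58 (Casp8), 0.51 (Birc3) and 0.50 (Map3k14). In 14 of the 15 with a positive value the estimate of the floxed response was positive as well. The exception was Map3k14, with -0.45 in floxed libraries. Among the 14, the floxed response of Fas was not called, and that of Tnfrsf1a was not called under quantile normalization. Both negative values, of Ltb and Tnfrsf21, belong to genes that fell in both genotypes.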

How the results depend on the processing

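Under the other settings the counts of members called stayed within 1.5 times the reported ones, with 2 exceptions, both with each library scaled to an equal total: members lower in LysMcre-labelled libraries with G-CSF were 11 in place of 3, and members with a lower response in the interaction 4 in place of 2. That scaling moved the median log2 difference of all genes to -0.13 between genotypes with G-CSF, -0.09 and -0.26 for the floxed and LysMcre-labelled responses, and -0.18 for the interaction. It uses 1 factor per library, so it shifts the genes of a comparison by about the same amount, apart from the pseudocount. Why the totals differed between groups was not tested. With this scaling the LysMcre-labelled response of Traf6 was -0.065 (limma adjusted p = 0.405). Under it, values smaller than reported by over 1.5 times included the LysMcre-labelled responses of Tank (0.24) and Xiap (0.22). They also included the interactions of Birc3 (0.34) and Map3k14 (0.33). The LysMcre-labelled response of Traf2 (-0.41) was among those larger by over 1.5 times.

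Leaving out 1 library at a time gave 16 to 18 members higher and 2 to 4 lower between genotypes with G-CSF, and 0 to 0 in either direction without it. It gave 22 to 23 higher and 9 to 12 lower for the LysMcre-labelled response, 18 to 21 and 8 to 9 for the floxed response, and 15 to 15 and 2 to 3 for the interaction. Partner genes called ran over 32 to 35, 52 to 56, 37 to 44 and 20 to 27 in that order of comparisons. Of the calls, 25 of 28 in floxed libraries, 30 of 34 in LysMcre-labelled libraries and 16 of 17 interactions held in all alternatives run, and between genotypes with G-CSF Tnfrsf14 was the call lost.

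The labels give same-numbered libraries no shared animal or day, and the deviations from group means did not settle a pairing. Same-numbered libraries had correlations of 0.32, 0.20 and 0.06 between floxed libraries with G-CSF and untreated, 0.21, -0.03 and 0.03 between the LysMcre-labelled ones, -0.12, -0.00 and -0.14 between genotypes with G-CSF, and -0.06, 0.09 and 0.18 between genotypes untreated. With a replicate block, 16 members were higher and 3 lower between genotypes with G-CSF, 23 and 11 in the LysMcre-labelled response, 20 and 8 in the floxed response, and 15 and 2 in the interaction. Partner genes were 34, 54, 42 and 23. With edgeR and the block, chosen after seeing the data, the members were 16 and 3, 23 and 12, 21 and 9, and 15 and 2 in that order. Depth limits Tnfsf9 and Tnfrsf10b, whose untreated libraries held 3 to 25 reads. It also limits members that were low in all groups. These include Tnfsf13 (3 to 26 reads a library), Tnfsfm13 (8 to 30), Tnfsf10 (10 to 31) and Tnfsf12 (11 to 40).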

Other observations

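For 6 chosen pairs of members that lie close on a chromosome, the responses to G-CSF are given as log2 values with no test of the pairs. The members were not searched for all such pairs. Tnfsf12 with Tnfsf13 and the cluster of Tnfrsf26, Tnfrsf22 and Tnfrsf23 also lie close and are described above. Ltb and Tnf lie 3.06 kb apart and moved in opposite directions, with -1.30 in LysMcre-labelled and -0.60 in floxed libraries for Ltb and 0.93 in LysMcre-labelled and 0.69 in floxed libraries for Tnf. Tnfrsf1b and Tnfrsf8, 20.3 kb apart, were also opposite, with 2.29 in LysMcre-labelled and 1.47 in floxed libraries against -1.57 in LysMcre-labelled and -1.07 in floxed libraries. In the other 4 pairs 1 gene had the larger response. Tnfsf9 (7.38 in LysMcre-labelled and 5.50 in floxed libraries) lies 81.7 kb from Tnfsf14 (2.56 in LysMcre-labelled and 1.63 in floxed libraries). Birc3 (1.72 in LysMcre-labelled and 1.22 in floxed libraries) lies 11.6 kb from Birc2 (-0.04 in LysMcre-labelled and -0.15 in floxed libraries, neither called). Tnfrsf18 (1.03 in LysMcre-labelled and 0.94 in floxed libraries) lies 9.55 kb from Tnfrsf4 (0.03 in LysMcre-labelled and -0.05 in floxed libraries, neither called). Cflar (1.57 in LysMcre-labelled and 0.75 in floxed libraries) lies 36.5 kb from Casp8 (0.88 in LysMcre-labelled and 0.31 in floxed libraries).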
